A study of Mus musculus with 9 samples.

Results

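Transcripts of 7 neural intermediate filament genes were examined in N2A cells, a mouse neuroblastoma line, after depletion of EXOSC3 or DDX1. The genes were taken by symbol and are Nefl, Nefm, Nefh, Ina, Prph, Vim and Nes, 7 of the 24318 genes in the deposited tables. EXOSC3 is a structural subunit of the RNA exosome, a complex that processes and degrades RNA, and DDX1 is a putative RNA helicase. All 9 libraries came from that line, 3 each after transfection of a scramble siRNA, an siRNA to EXOSC3 or an siRNA to DDX1, with no other treatment. The scramble cells carry the genotype label WT, and the other groups are labelled DDX1 knockdown and EXOSC3 knockdown. Each replicate came from a plate of its own. The time after transfection, the siRNA against DDX1 and which of the EXOSC3 siRNAs gave the sequenced RNA are not given in the sources used here. Levels are FPKM, a fragment count per transcript length and library size whose library scaling is not given in the sources used here. Because of the length term they can be compared between genes. Each knockdown was compared with the scramble values of its own table, because the tables were scaled separately.

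Intermediate filaments are rope-like polymers that give cells mechanical strength and set the calibre of axons. Vimentin (Vim) and peripherin (Prph) are type III proteins that can form filaments on their own, and peripherin is typical of peripheral neurons. The type IV proteins are the light, medium and heavy neurofilament subunits (Nefl, Nefm and Nefh), alpha-internexin (Ina) and nestin (Nes). The medium and heavy neurofilament subunits need a partner such as the light subunit to build a filament, and nestin needs a partner such as vimentin. Vimentin and nestin mark neural progenitors, and the neurofilament subunits accumulate as neurons mature.

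The labels were checked first. Exosc3 was at 15.5, 17.4 and 13.6% of the scramble mean in siEXOSC3 replicates 1, 2 and 3. Ddx1 was at 22.4, 22.9 and 27.8% in siDDX1 replicates 1, 2 and 3. Of 17 markers of neuroblasts and young neurons, 15 reached a mean of 1 FPKM, among them Hand2 (scramble mean 122.7 FPKM), a transcription factor of the sympathetic lineage. Dcx and Th, which encode a protein of migrating neurons and the first enzyme of catecholamine synthesis, were at 0.00505 and 0.179 FPKM. Markers of other cells were low. Ptprc, Adgre1 and Aif1 of macrophages, Col1a2, Col3a1 and Lum of fibroblasts, Kdr of endothelium and Aqp4 of glia were listed at 0 in every scramble library, while Mbp of glia (2.12 FPKM) and Pecam1 of endothelium (4.13 FPKM) were above 1. The depth relative to scramble replicate 1, lay between 0.824 and 1.20 for the other libraries. It was read from the most frequent ratio of FPKM among low genes, which 18.6 to 22.8% of those genes shared. The absolute depth is unknown.

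In scramble cells the family was dominated by its type III members, and the neurofilament triplet was incomplete. Prph stood at 648, 714 and 673 FPKM in scramble replicates 1, 2 and 3 of the siEXOSC3 table, which made it the 144th most abundant of 24318 genes. Vim followed at 491, 479 and 501 FPKM, in rank 191. Every Prph value was above every Vim value. Nefh came next with 45.2, 45.2 and 51.4 FPKM, and Ina with 31.6, 34.2 and 34.97 FPKM. Nes, the large progenitor protein, was at 7.97, 6.54 and 7.65 FPKM. None of these neighbours in the order overlapped in scramble cells. Vim was 10.4-fold above Nefh, and Nes was 110-fold above Nefm, by the scramble means.

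Nefm and Nefl were close to the lower limit of the measurement. Nefm was at 0.0156, 0.102 and 0.0847 FPKM in the scramble libraries. Nefl was listed at 0 in scramble replicates 1 and 2 and at 0.0245 FPKM in replicate 3. The values of these neighbours overlapped, so their order is not resolved. Thus the heavy subunit was measured at a moderate level while the light and medium subunits were nearly undetected. Nefl and Nefm did not reach a mean FPKM of 1 and were not tested in either table, which leaves 5 of the 7 members.

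**Figure D1:**
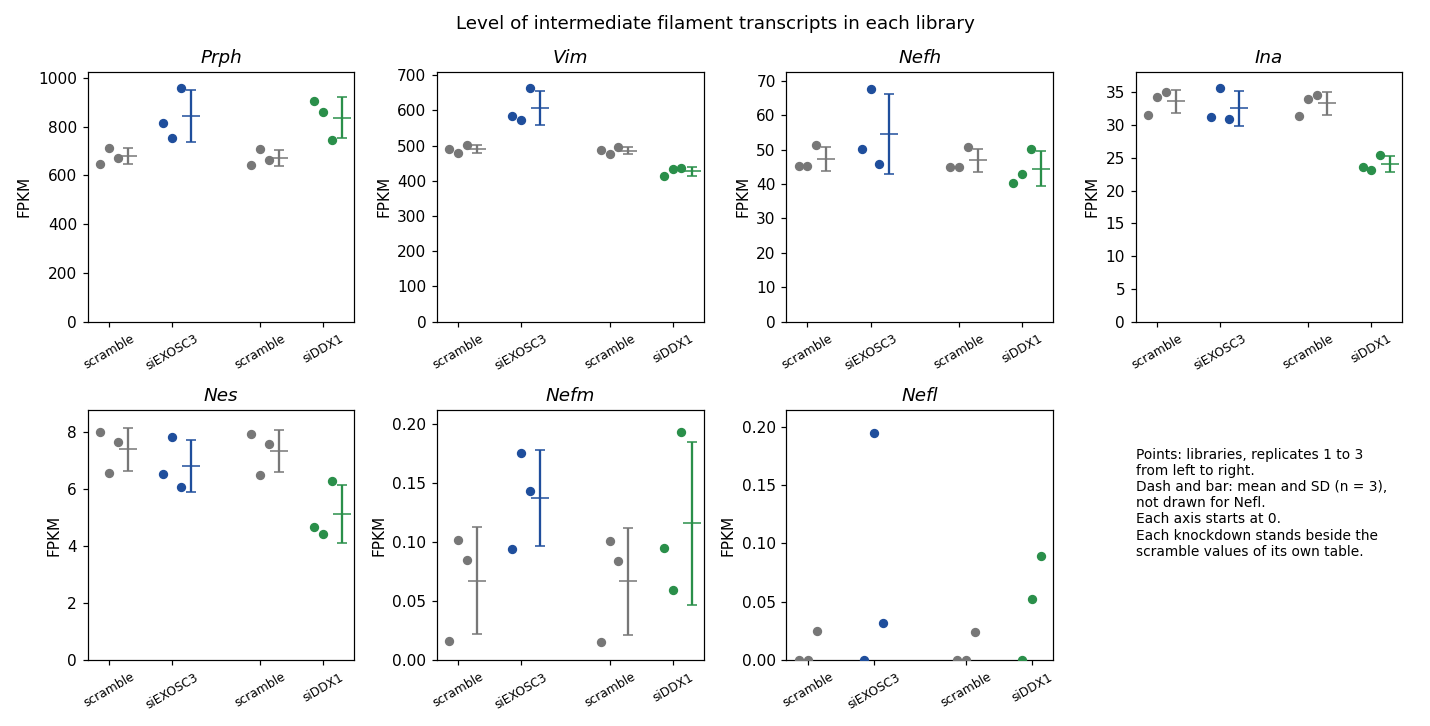
FPKM of each member (vertical axes, each from 0) in the scramble and siEXOSC3 libraries of the siEXOSC3 table and the scramble and siDDX1 libraries of the siDDX1 table, with the mean and SD (n = 3) except for Nefl. Prph lies above scramble in both knockdowns, Vim lies above it in siEXOSC3 and below it in siDDX1 cells, and Nefm and Nefl do not exceed 0.194 FPKM in any library.

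The members lie on several chromosomes of NCBIM37, the sequence of mm9 to which the authors aligned. Nefl (chromosome 14, 68701920 to 68707152, plus strand) is contained in the annotated span of Nefm (68700647 to 68742903, minus strand). The libraries did not keep the strand, so the few fragments of these genes cannot be assigned with certainty. Ina (chromosome 19, 47089188 to 47099817, plus strand) overlaps Nt5c2 on the minus strand, so their reads cannot be told apart where the genes overlap. Nefh (chromosome 11, 4838757 to 4848067, minus strand), Prph (chromosome 15, 98885605 to 98889409, plus strand), Vim (chromosome 2, 13495554 to 13504453, plus strand) and Nes (chromosome 3, 87775000 to 87784373, plus strand) have no annotated gene within 5 kb. The gene structures follow the protein types. By the annotation, in the longest coding transcript Vim has 9 exons and Prph has 8. Nefl, Nefm, Nefh and Nes have 4 exons each, and Ina has 3.

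RefSeq promoter windows, from 250 bases before to 50 bases after the start, were at hand for 4 of the 7 members, namely Prph, Vim, Ina and Nes. They are shown for the members whose transcripts passed the test in a knockdown. Capitals mark the TATA box TATAAA, the CCAAT box CCAAT and the GC box GGGCGG, on either strand.
Prph (GRCm38.p6, chr15:99054924-99055223, plus strand): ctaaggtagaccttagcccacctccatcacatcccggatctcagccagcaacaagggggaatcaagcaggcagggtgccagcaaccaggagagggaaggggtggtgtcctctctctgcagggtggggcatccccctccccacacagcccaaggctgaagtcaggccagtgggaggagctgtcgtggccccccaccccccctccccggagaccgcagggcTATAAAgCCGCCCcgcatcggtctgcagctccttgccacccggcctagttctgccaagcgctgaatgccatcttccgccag
Vim (GRCm38.p6, chr2:13574061-13574360, plus strand): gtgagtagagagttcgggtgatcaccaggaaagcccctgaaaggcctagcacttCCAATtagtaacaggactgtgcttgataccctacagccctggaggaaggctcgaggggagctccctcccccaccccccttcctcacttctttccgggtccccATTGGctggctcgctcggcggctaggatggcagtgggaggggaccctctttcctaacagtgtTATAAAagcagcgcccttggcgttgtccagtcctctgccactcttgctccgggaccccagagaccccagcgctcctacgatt
Ina (GRCm38.p6, chr19:47014431-47014730, plus strand): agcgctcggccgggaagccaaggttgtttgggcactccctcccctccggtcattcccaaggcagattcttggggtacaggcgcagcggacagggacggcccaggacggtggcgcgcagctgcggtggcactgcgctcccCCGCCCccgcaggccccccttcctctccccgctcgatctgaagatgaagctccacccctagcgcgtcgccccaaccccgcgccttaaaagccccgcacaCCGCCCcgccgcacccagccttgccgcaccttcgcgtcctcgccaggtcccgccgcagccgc
The Prph and Vim windows each hold a TATA box on the plus strand, from -31 to -26 and from -32 to -27 relative to the start. The motif occurs anywhere in 13.6% of all 32851 windows of 300 bases. The Ina and Nes windows lack these letters. A GC box, found in 35.7% of all windows, occurs on the minus strand in Ina (from -111 to -106 and from -12 to -7), in Prph (from -24 to -19) and in Nes (from -73 to -68 and from -62 to -57). Vim has CCAAT boxes from -196 to -192 and from -94 to -90, a motif of 37.4% of windows. Neither TGACTCA (AP-1) nor TGACGTCA (CRE) was found in the 4 windows. No motifs overlap in them. The GC content was 71.7% for Ina, 64.7% for Prph, 59.3% for Vim and 58.7% for Nes, and the median over all windows was 52.7%.

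In siEXOSC3 cells the type III members rose. Prph and Vim increased, no member decreased, and Nefh, Ina and Nes did not pass the test. These 2 increased genes of the 5 tested stand against 16.7% of all tested genes that increased and 15.7% that decreased, where a call needed an adjusted p-value under 0.05 by limma. For both genes the knockdown values lay entirely above scramble, as for 23.8% of all tested genes. At an unadjusted limma p-value under 0.05 the members increased were again 2 and those decreased 0, beside 22.0 and 23.4% of all tested genes. No member lay entirely below scramble, as 25.9% of all tested genes did. The median log2 fold change of the 5 members was 0.19, and that of all tested genes was -0.014. The former is the value of Nefh and was 0.022 without siEXOSC3 replicate 2.

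Prph was at 817, 755 and 960 FPKM in siEXOSC3 replicates 1, 2 and 3. All of these values exceeded the highest scramble value of 714 FPKM. Means were 679 ± 33.4 FPKM in scramble and 844 ± 105 FPKM after knockdown (SD, n = 3 each), so that Prph rose to 124% ± 15.5 (SD, n = 3) of the control level. Limma gave a log2 fold change of 0.31 with a standard error of 0.0997 (adjusted p = 0.0449). This call is close to the threshold. It was lost in the fits without scramble replicate 1 (limma adjusted p = 0.158), 2 (0.0768) or 3 (0.112) and without siEXOSC3 replicate 1 (0.0942) or 3 (0.0782). Other fits that lost it were those without a filter on low values (0.0887), without an intensity trend (0.0507) and with the replicate number as a block (0.0808), within a range from 0.0140 to 0.158 over 13 alternatives, while the log2 fold change stayed between 0.21 and 0.38.

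Vim was at 585, 573 and 663 FPKM in the siEXOSC3 libraries, again above every scramble value. Means were 490.3 ± 11.0 FPKM in scramble and 607 ± 49.2 FPKM after knockdown (SD, n = 3 each), and Vim rose to 124% ± 10.0 (SD, n = 3) of the control level. Its log2 fold change of 0.30 had a standard error of 0.0783 (limma adjusted p = 0.0205). The call was lost without scramble replicate 1 (limma adjusted p = 0.0803), 2 (0.0732) or 3 (0.0528), without siEXOSC3 replicate 1 (0.0508) and with quantile normalization (0.0663). Over 13 alternatives the adjusted p-value ranged from 0.0119 to 0.0803 and the log2 fold change from 0.24 to 0.34. By absolute change Prph held rank 2836 and Vim rank 2879 among the called genes of this comparison, so both changes were small.

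Nefh, Ina and Nes gave no call in siEXOSC3 cells. Nefh was at 50.1, 67.7 and 45.8 FPKM, so that replicate 2 stood high and replicates 1 and 3 lay within the scramble range. Its log2 fold change was 0.19 with a 95% interval from -0.12 to 0.49 (limma adjusted p = 0.314). It was 0.022 without siEXOSC3 replicate 2 and 0.30 without replicate 3, and passed the test in neither fit. Ina was at 31.2, 35.6 and 30.8 FPKM, which overlaps scramble, with a log2 fold change of -0.04 and an interval from -0.22 to 0.13. Nes was at 6.50, 7.83 and 6.08 FPKM, with a log2 fold change of -0.11 and an interval from -0.36 to 0.14. These intervals leave room for changes as large as those of Prph and Vim in the case of Nefh, and in the case of Nes for a fall of that size. When single libraries were left out, Ina ranged from -0.11 to -0.0084 and Nes from -0.20 to -0.039, and neither passed the test. Nefl was listed at 0, 0.194 and 0.0312 FPKM, and Nefm was at 0.0942, 0.175 and 0.144 FPKM. Both overlapped scramble.

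In siDDX1 cells Ina fell, and no member passed the test for an increase. This is 1 decreased gene of the 5 tested, where 5.03% of all tested genes decreased and 5.61% increased. At an unadjusted limma p-value under 0.05, 1 member increased (Prph) and 3 decreased (Ina, Vim and Nes), beside 15.1 and 15.0% of all tested genes. Of the members that missed the adjusted threshold, Vim and Nes lay entirely below scramble and Prph entirely above it. Over all tested genes 17.8% lay entirely below and 17.0% entirely above scramble. The median log2 fold change was -0.18 for the members (-0.29 with quantile normalization) and -0.00059 for all tested genes.

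Ina was at 23.6, 23.2 and 25.5 FPKM in siDDX1 replicates 1, 2 and 3, and at 31.3, 34.0 and 34.6 FPKM in the scramble libraries of that table. The groups were well separated. Means were 33.3 ± 1.73 FPKM in scramble and 24.1 ± 1.22 FPKM after knockdown (SD, n = 3 each), so that Ina fell to 72.4% ± 3.67 (SD, n = 3) of the control level. Limma gave a log2 fold change of -0.45 with a standard error of 0.0669 (adjusted p = 0.00868), rank 513 among the called genes. It stayed between -0.49 and -0.42 over 13 alternatives, with adjusted p-values from 0.000983 to 0.0538, and the highest of these was that without scramble replicate 3. Nt5c2, the overlapping gene on the other strand, had means of 18.3 ± 0.541 FPKM in scramble and 15.5 ± 0.610 FPKM in siDDX1 cells (SD, n = 3 each), with a log2 fold change of -0.22 (limma adjusted p = 0.0606). Its part in the value of Ina was not tested.

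Prph was at 906, 861 and 745 FPKM in siDDX1 cells, against 643, 709 and 665 FPKM in scramble. Replicate 3 was the lowest and stood nearest to scramble. The mean was 125% ± 12.4 (SD, n = 3) of the control level, beside 124% in siEXOSC3 cells. With a 95% interval from 0.091 to 0.53, the log2 fold change of 0.31 missed the adjusted threshold (limma adjusted p = 0.0738). Quantile normalization lowered it to 0.11.

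Vim was at 413, 434 and 436 FPKM in siDDX1 cells and at 487, 475 and 495 FPKM in scramble. All knockdown values were thus below scramble, whereas all siEXOSC3 values were above it. The mean was 88.0% ± 2.64 (SD, n = 3) of scramble, a log2 fold change of -0.18 with a 95% interval from -0.34 to -0.032 (limma adjusted p = 0.108). With quantile normalization the log2 fold change was -0.29 (limma adjusted p = 0.0316). The difference between the knockdowns was not tested, because the tables were scaled separately.

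Nes was at 4.66, 4.41 and 6.26 FPKM in siDDX1 cells, and at 7.91, 6.49 and 7.56 FPKM in scramble. Its mean was 69.9% ± 13.7 (SD, n = 3) of the control level. The log2 fold change of -0.45 had the size of that of Ina but a larger standard error of 0.127 (limma adjusted p = 0.0566). Nefh was at 40.2, 43.0 and 50.2 FPKM and overlapped scramble at 44.8, 44.8 and 50.8 FPKM, with a log2 fold change of -0.08 and a 95% interval from -0.29 to 0.13. Its log2 fold change ranged from -0.17 to -0.0084 when single libraries were left out. Nefl was listed at 0, 0.0518 and 0.0894 FPKM, and Nefm was at 0.0953, 0.0596 and 0.193 FPKM.

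Single libraries stood nearer to scramble than the others in both knockdowns. In siEXOSC3 cells replicate 2 was nearest to the scramble mean in 4 of the 5 tested members and replicate 3 was farthest in 4 of 5, and Exosc3 was least depleted in replicate 2 and most depleted in replicate 3. In siDDX1 replicate 3 all 5 tested members were nearer to the scramble mean than in the other siDDX1 replicates, and Ddx1 itself was least depleted there. Without siDDX1 replicate 3 Prph (limma adjusted p = 0.00457), Vim (0.0433) and Nes (0.00236) passed the threshold as well, with log2 fold changes of 0.39, -0.20 and -0.58. As that library was nearest to scramble for all 5 members, leaving it out enlarges their changes, and these calls are no separate support. Over 13 alternatives the adjusted p-values ranged from 0.00457 to 0.241 for Prph, from 0.0316 to 0.276 for Vim and from 0.00236 to 0.197 for Nes. The part of the extent of depletion in either pattern was not tested.

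**Figure D2:**
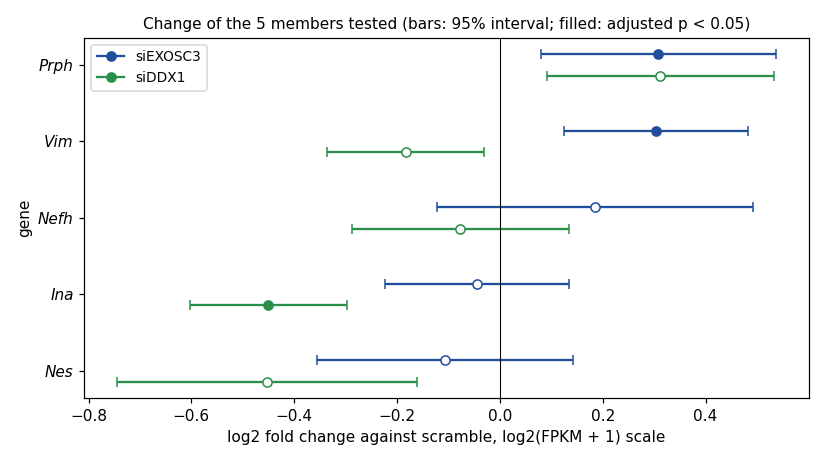
Log2 fold change against scramble (horizontal axis, log2(FPKM + 1) scale) of the 5 members tested, with 95% intervals from limma, in siEXOSC3 and siDDX1 cells; filled points passed an adjusted p-value of 0.05. Prph lies near 0.31 in both knockdowns, Vim lies on opposite sides of 0, and the filled points are Prph and Vim in siEXOSC3 and Ina in siDDX1 cells.

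The make-up of the family within a library does not depend on how that library was scaled. Each member was therefore also expressed as a share of the summed FPKM of the 7 members. In scramble libraries Prph made up 53.0, 55.8 and 53.1% and Vim 40.1, 37.4 and 39.5%. The remaining members together filled only a small part, with Nefh at 3.76% ± 0.268 (SD, n = 3), Ina at 2.67% ± 0.0889 (SD, n = 3) and Nes at 0.589% ± 0.0713 (SD, n = 3).

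In siEXOSC3 cells the sum of the members was higher in every library, and the shares of Prph and Vim overlapped those of scramble. The sum was 1490, 1439 and 1706 FPKM, above all scramble sums of 1224, 1280 and 1268 FPKM (exact permutation test, p = 0.1, two-sided, and no smaller p is possible for 3 libraries against 3). Prph held 54.5% ± 1.92 (SD, n = 3) and Vim 39.3% ± 0.453 (SD, n = 3). These shares differed from scramble by 0.57 and 0.29 percentage points (exact permutation test, p = 0.9 for each). The share of Ina was lower in every siEXOSC3 library, at 2.09, 2.48 and 1.81%, against a scramble range from 2.58 to 2.76% (exact permutation test, p = 0.1). With the 5 neuronal members as denominator, that is without Vim and Nes, the share differed from scramble by -0.89 percentage points for Ina, in place of -0.54, and by 1.15 for Prph, in place of 0.57.

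In siDDX1 libraries Prph took a larger and Vim a smaller share than in any scramble library. Prph held 65.3, 63.1 and 59.0% and Vim 29.8, 31.8 and 34.5%, and neither overlapped scramble (exact permutation test, p = 0.1 for each). The ratio of Vim to Prph was 0.456, 0.504 and 0.586, whereas it was 0.757, 0.671 and 0.744 in scramble and 0.716, 0.758 and 0.691 in siEXOSC3 cells. The shares of Ina (1.81% ± 0.184, SD, n = 3) and Nes (0.385% ± 0.0963, SD, n = 3) also lay entirely below scramble. With the 5 neuronal members as denominator the gain of Prph was 3.0002 percentage points in place of 8.48, and the difference for Ina was -1.74 in place of -0.86 (exact permutation test, p = 0.1 for each). The sum of the members was 1387, 1366 and 1263 FPKM and overlapped scramble (exact permutation test, p = 0.2).

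**Figure D3:**
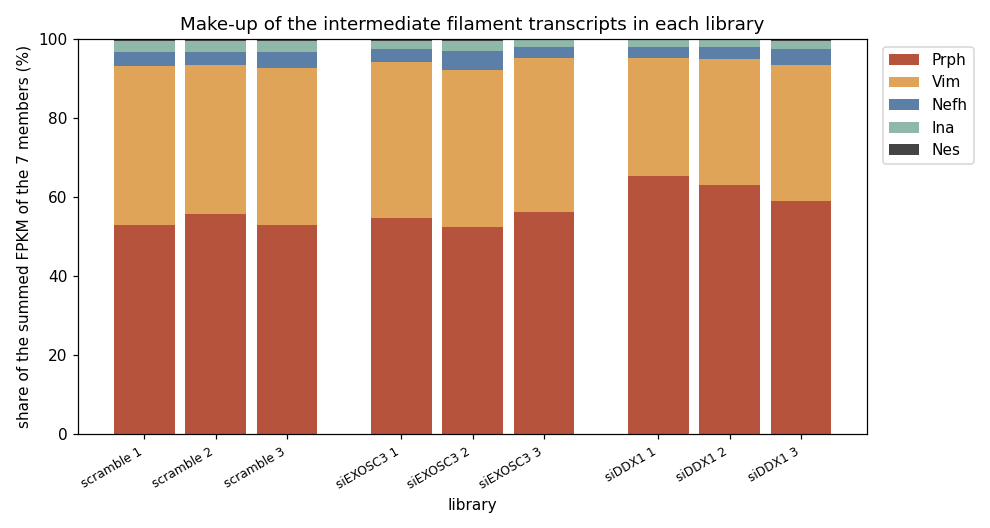
Share of each member in the summed FPKM of the 7 members (vertical axis, percent) in each scramble, siEXOSC3 and siDDX1 library, with scramble from the siEXOSC3 table; Nefl and Nefm are too low to be drawn. Prph fills 59.0 to 65.3% of the siDDX1 bars and 52.5 to 56.3% of the siEXOSC3 bars.

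For the 3 members that passed the test, the genes of most similar pattern were sought among 8611 other genes with a mean of at least 5 FPKM. Likeness was the root mean square difference of the log2 deviations from the scramble mean over 9 libraries. The nearest genes were Sox9 (0.055) and Srp72 (0.056) for Prph, Actr2 (0.058) and Sgcb (0.060) for Vim, and Tub (0.057) and Wwc2 (0.058) for Ina. Sox9 passed the test in neither knockdown (limma adjusted p = 0.0583 and 0.0547). Each other gene passed in the knockdown in which its member did. A nearest gene exists for any member, and how unusual these distances are was not tested. As background, Sox9 encodes a transcription factor of progenitors, Srp72 a protein of the signal recognition particle and Actr2 a subunit of the ARP2/3 complex that nucleates actin.

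The counts of related genes that follow are to be read against all tested genes, of which 16.7% increased and 15.7% decreased in siEXOSC3 cells, and 5.61 and 5.03% in siDDX1 cells. In lists of 6 to 10 tested genes a count of 1 or 2 in siEXOSC3 cells is near that background. Of 20 other intermediate filament genes 6 reached the level for testing. These were the lamin genes Lmna, Lmnb1 and Lmnb2 and, at lower scramble means, Iffo1 (6.63 FPKM), Synm (5.28 FPKM) and Sync (1.27 FPKM). Krt5, Krt7, Krt14 and Krt20, keratins of epithelia, were listed at 0 in every library. In siEXOSC3 cells 2 increased and 1 decreased. Lmna, which encodes lamins A and C, rose from 38.3, 41.1 and 37.5 FPKM in scramble to 60.4, 49.9 and 82.3 FPKM (log2 fold change 0.68, limma adjusted p = 0.0136). Lmnb1, the gene of lamin B1, fell from 42.0, 43.5 and 41.9 FPKM to 28.2, 32.0 and 25.1 FPKM (log2 fold change -0.57, limma adjusted p = 0.00364). Sync, which encodes syncoilin, increased with a log2 fold change of 0.99 (limma adjusted p = 0.00791). None of the 6 passed the test in siDDX1 cells, where Lmna was at 63.2, 61.3 and 42.9 FPKM (limma adjusted p = 0.0515). With the replicate block, and likewise with median centring, 1 of them increased there. At an unadjusted limma p-value under 0.05 there were 2 higher and 1 lower in siDDX1 cells, and without siDDX1 replicate 3 the adjusted test called 2 increased. Without scramble replicate 1 or 3 it called 1 increased in siEXOSC3 cells, and without siEXOSC3 replicate 2 it called 2 decreased. The median log2 fold change of this list was 0.14 in siEXOSC3 and -0.020 in siDDX1 cells.

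Among 14 genes of filament linkers, motors and chaperones 10 were tested. In siEXOSC3 cells 3 increased and 2 decreased, and in siDDX1 cells 1 increased and 1 decreased, where the shares over all tested genes were 16.7, 15.7, 5.61 and 5.03%. The median log2 fold changes were 0.13 and -0.083. Plec, which encodes plectin, the linker of intermediate filaments to actin and membrane junctions, rose in both, with log2 fold changes of 0.67 (limma adjusted p = 0.0116) and 0.26 (limma adjusted p = 0.0330). Cryab, which encodes a small heat shock protein that binds type III filaments, fell in both. It was at 20.3, 17.4 and 25.2 FPKM in scramble and at 13.5, 15.0 and 16.1 FPKM in siEXOSC3 cells, and in siDDX1 cells at 12.1, 11.8 and 11.4 FPKM (log2 fold change -0.76, limma adjusted p = 0.01005). The kinesin heavy chains moved in different directions in siEXOSC3 cells, where Kif5c (0.38) rose and Kif5b (-0.40) fell on the log2 scale. Cryab had a log2 fold change of -0.46 there, and Kif5a (0.33) was the remaining called gene. The increase in siDDX1 cells was called in 1 of the 6 fits that left out a single library, the one without siDDX1 replicate 3, where 2 genes decreased, and the decrease was not called without scramble replicate 1. In siEXOSC3 cells 1 gene decreased in the fits without scramble replicate 1 or 3 or siEXOSC3 replicate 1, and 5 increased without siEXOSC3 replicate 2.

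Of 25 kinases, phosphatases and turnover factors of filaments, all were tested against scramble in siEXOSC3 cells and 24 in siDDX1 cells. In siEXOSC3 cells 8 increased and 2 decreased, against 16.7 and 15.7% of all tested genes, and the median log2 fold change was 0.13. Mapk10, a neuronal JNK kinase, rose, with means of 3.68 ± 0.280 FPKM in scramble and 8.17 ± 0.612 FPKM after knockdown (SD, n = 3 each) and a log2 fold change of 0.97 (limma adjusted p = 0.000639). Cdk5r2, a neuronal activator of CDK5, which phosphorylates neurofilament tails, had a log2 fold change of 0.95 (limma adjusted p = 0.000679), and Mapk3 one of 0.70. The genes that fell were the mitotic kinases Plk1 (-0.66) and Aurkb, which phosphorylate vimentin during division. In siDDX1 cells 2 increased and 0 decreased, against 5.61 and 5.03% of all tested genes, with a median of 0.023. Cdk5r2 again rose (0.54, limma adjusted p = 0.0128), with Gsk3b (0.28, limma adjusted p = 0.0259), while 3 genes were lower at an unadjusted p-value under 0.05. The number increased was 0 without scramble replicate 1, 1 without any other library except siDDX1 replicate 3, and 4 without that one, when 3 decreased. In siEXOSC3 cells it was 5 without scramble replicate 1.

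Regulators of filament genes were examined in 2 lists. Of 8 tested transcription factors, 3 increased and 1 decreased in siEXOSC3 cells, and none passed the test in siDDX1 cells, where at an unadjusted limma p-value under 0.05 there were 0 higher and 1 lower. The median log2 fold changes were 0.017 and -0.079. Rest, a repressor of neuronal genes, fell from 11.6, 12.9 and 10.8 FPKM to 7.51, 7.51 and 8.46 FPKM (log2 fold change -0.53, limma adjusted p = 0.00434). Jun (0.77), Isl1 (0.68) and Sox11 (0.33) rose. All 8 RNA-binding proteins of neurofilament mRNA were tested. In siEXOSC3 cells 2 of them increased and 1 decreased, while siDDX1 cells had 2 increased and 0 decreased, with medians of -0.015 and 0.15. Arhgef28, whose product binds the mRNA of the light subunit, rose in both (log2 fold changes 0.89 and 0.35), and so did Elavl4 (0.69 and 0.58), a neuronal mRNA-stabilizing protein. Pcbp1 (-0.28) fell in siEXOSC3 cells, a call lost without scramble replicate 1. Without siEXOSC3 replicate 3, 2 transcription factors decreased. The RNA-binding proteins increased in siDDX1 cells numbered 0 without scramble replicate 1 or 3 or siDDX1 replicate 2, 1 without scramble replicate 2, and 4 without siDDX1 replicate 3, when 1 decreased.

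Markers of neuroblasts and young neurons largely rose in siEXOSC3 cells. There 11 of 15 tested markers increased, where 16.7% of all tested genes did, with a median log2 fold change of 0.69. Gap43, a protein of growing axons, rose from 84.2, 83.3 and 77.0 FPKM to 227, 223 and 248 FPKM (log2 fold change 1.501, limma adjusted p = 6.71e-05). Mapt (1.21), Stmn2 (1.06) and Map1b (0.92), which encode proteins of axonal microtubules, followed. In siDDX1 cells 3 of the 15 increased and 0 decreased, namely Mapt (0.74), Map1b (0.60) and Gap43 (0.50), where 5.61% of all tested genes increased, and the median was -0.020. The number increased was 1 without scramble replicate 1 or 3 and 5 without siDDX1 replicate 3, when 2 decreased. In siEXOSC3 cells it lay between 10 and 12 in the fits without single libraries. At an unadjusted limma p-value under 0.05, 2 markers were lower in siDDX1 cells. Summed markers of fibroblasts, cells that also make vimentin, were at 0.846 to 1.12 FPKM in scramble and 1.03 to 1.31 FPKM in siEXOSC3 libraries, and at 0.862 to 0.906 FPKM in siDDX1 libraries. Of these, Col1a1 was at 0.474, 0.295 and 0.405 FPKM in siEXOSC3 cells, above 0.165, 0.157 and 0.206 FPKM in scramble, while Pdgfra overlapped scramble. Without a filter on low FPKM 1 fibroblast marker increased in siEXOSC3 cells. Summed markers of macrophages did not exceed 0.549 FPKM in any library. Those of endothelium were at 3.84 to 4.51 FPKM in scramble and at 6.15 to 9.08 FPKM in siEXOSC3 libraries, where Pecam1 increased by 0.67 on the log2 scale (limma adjusted p = 0.00827). In siDDX1 libraries they were at 4.88 to 5.54 FPKM, also entirely above the 3.81 to 4.46 FPKM of scramble in that table, and Pecam1 had a log2 fold change of 0.29 (limma adjusted p = 0.0687). These endothelium sums were almost entirely Pecam1, and Kdr was listed at 0 in every library. Cdh5 overlapped scramble, with means of 0.0250 FPKM in scramble and 0.0176 FPKM in siEXOSC3 cells. In the siDDX1 table its means were 0.0248 and 0.0186 FPKM. Summed markers of glia were at 3.16 to 3.66 FPKM in scramble and 3.04 to 3.15 FPKM in siEXOSC3 libraries. In bulk RNA, more cells of a type and more RNA per cell cannot be told apart, and the part of these markers in the values of the members was not tested.

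**Figure D4:**
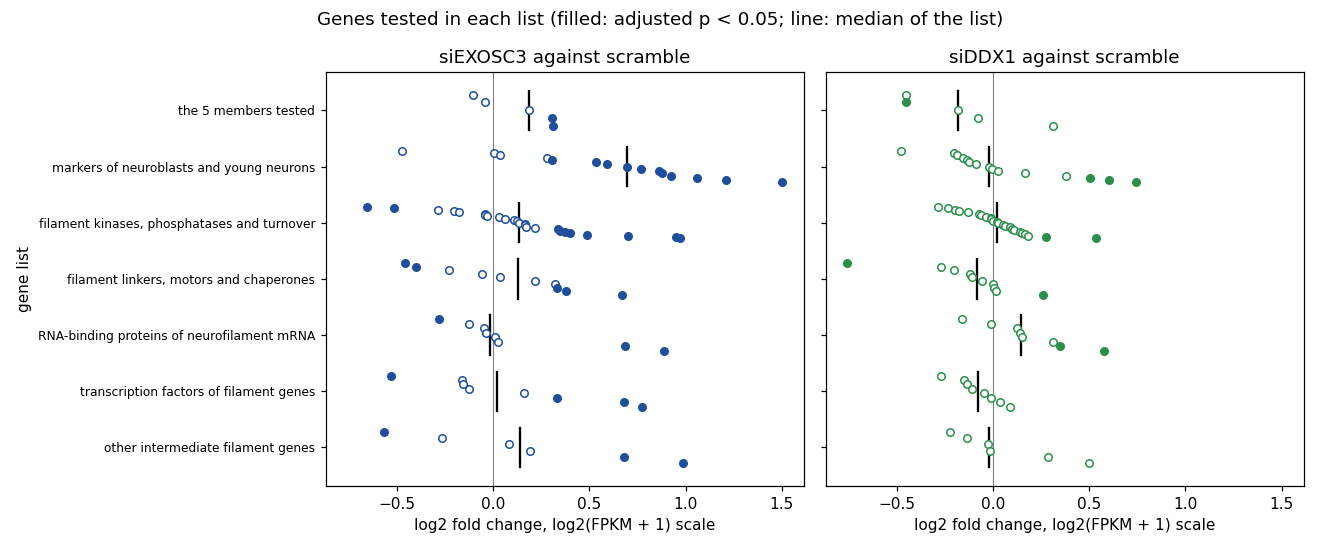
Log2 fold changes against scramble (horizontal axes, log2(FPKM + 1) scale) of the 5 members and of the tested genes in 6 related lists, in siEXOSC3 (left) and siDDX1 cells (right); filled points passed an adjusted p-value of 0.05 and lines mark the list medians. In siEXOSC3 cells the neuroblast and neuron markers have a median of 0.69, and the 5 members one of 0.19 (0.022 without siEXOSC3 replicate 2).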

How the data were processed

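RNA-seq libraries of N2A cells (3 scramble, 3 siEXOSC3 and 3 siDDX1) were made after removal of ribosomal RNA with a nondirectional kit. The authors aligned reads to mm9 with TopHat2 2.1.0 and ran Cuffdiff 2.2.1, per the labels, and deposited FPKM per gene and library in 2 tables that share the scramble libraries. Which gene models were used and how libraries were normalized is not given in the sources used here. Scramble values in the siEXOSC3 table are higher than in the siDDX1 table by a factor of 1.00782 to 1.01188, depending on the library.

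From the deposited FPKM, log2(FPKM + 1) was fitted with limma 3.58.1 in R 4.3.3 (intensity trend, no covariates) for every gene that averaged 1 FPKM or more across the 6 libraries compared (11242 genes for siEXOSC3 and 11104 for siDDX1). On this scale the fold change of a low gene comes out too small. The Benjamini-Hochberg method was applied to the two-sided p-values of all genes tested, and 0.05 was the threshold. The fit was tested on simulated data. Count models were not applied, since the values are FPKM. Shares and ratios were compared by two-sided exact permutation tests. Positions came from GENCODE vM1 on NCBIM37 and promoter windows from RefSeq on GRCm38.p6. A marker gene of the lists is not reported here. Figures were drawn with matplotlib 3.10.9.

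The members and the 10 gene lists were chosen with earlier results of these data known. The text names all members, at most 4 called genes of each list and knockdown (those with the largest changes), and the 2 genes nearest in pattern to each called member. Kif5a, Aurkb, Nt5c2, the keratins, Iffo1, Synm, Lmnb2, Lmna in siDDX1 cells and single cell type markers are named outside that rule, after their values were seen. Alternatives were a pseudocount of 0.1, no filter, a filter at 5 FPKM, quantile normalization, a fit without the intensity trend, median centring, a block for the replicate number, leaving out each library in turn, and the 5 neuronal members as denominator of the shares.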

Additional observations from a re-analysis of the deposited data

Results flagged for a closer look

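Vim moved in opposite directions in the knockdowns. Every siEXOSC3 library was above, and every siDDX1 library below, all scramble libraries of its table, with log2 fold changes of 0.30 and -0.18 that lie 0.49 apart. This difference was not tested, and the siDDX1 value alone missed the adjusted threshold (limma adjusted p = 0.108).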

How the results depend on the processing

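The number of members increased in siEXOSC3 cells, 2 as reported, was 1 without a filter on low FPKM, with quantile normalization, without an intensity trend and with the replicate block, and ranged from 0 to 2 when single libraries were left out. No member decreased there under any of these alternatives. In siDDX1 cells the number increased was 0 as reported, 1 with the replicate block, and 0 to 1 without single libraries. The number decreased was 1 as reported, 2 with quantile normalization and 2 with the replicate block, and 0 to 3 without single libraries. None of the log2 fold changes of the 5 tested members changed sign under the 13 alternatives. Shares of the summed FPKM in siEXOSC3 cells that differed little from scramble changed sign, namely that of Nefh without siEXOSC3 replicate 3 (0.27 percentage points), that of Prph without the same library (-0.31) and that of Vim without scramble replicate 2 (-0.50). Over the fits without single libraries these ranged from -0.74 to 0.27 for Nefh, from -0.31 to 1.59 for Prph and from -0.50 to 0.83 for Vim. The cause of these changes was not tested.

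Same-numbered libraries showed no likeness in the siEXOSC3 table, and the siDDX1 table was mixed. Deviations of same-numbered libraries correlated across genes at -0.31 to 0.035 in the siEXOSC3 table and -0.012 to 0.38 in the siDDX1 table. In the siDDX1 table replicates 2 (0.38) and 3 (0.37) correlated best with their own number, and replicate 1 (-0.012) did not. Whether the numbers pair the siDDX1 and scramble samples is not settled. With the replicate block Prph lost its call in siEXOSC3 cells (limma adjusted p = 0.0808), and Prph (0.0369) and Nes (0.0286) passed in siDDX1 cells. The block also changed list counts in siDDX1 cells. There 2 linkers, motors and chaperones decreased, as did 1 gene each of the kinase, transcription factor and neuron marker lists. It gave 3 increased genes each in the kinase and RNA-binding protein lists. Nefl and Nefm did not exceed 0.194 FPKM in any library, and changes below that level were not tested.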
